A study of Arabidopsis thaliana with 9 samples.

Results

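Cellulose, the load-bearing polymer of the plant cell wall, is made at the plasma membrane by complexes of cellulose synthase (CESA) proteins. Primary walls, which surround growing cells, need CESA1, CESA3 and an isoform of the CESA6 group, to which CESA2 and CESA5 belong. Secondary walls, laid down inside the primary wall of xylem vessels and fibres after growth has ended, need CESA4, CESA7 and CESA8 together. These 8 genes were picked by locus code from a table of 20777 loci, 5 of the primary wall and 3 of the secondary wall, and all 8 were measured. No CESA sequence is shown.

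Transcript levels came from Affymetrix ATH1 arrays of the vegetative part of Arabidopsis thaliana seedlings at growth stage 1.04, grown on MS medium at 22 °C with 16 h of light and 8 h of dark. All plants were of the Col-0 ecotype, and the 9 arrays were 3 biological repeats each of the wild type (WT), scr-3 and shr-5. The line scr-3 is a mutant of SCARECROW (SCR) and shr-5 one of SHORT-ROOT (SHR), GRAS transcription factors known from ground tissue patterning in the root. The series title asks how both act on leaf growth and S phase. Each line stands for its gene by 1 allele. The labels call the repeats biological without saying how the plants were raised, so the p-values measure the spread between these arrays only.

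Values are log2 signals after RMA, and a difference of 1 is a 2-fold change. Signals of different loci depend on their probes, so levels of different genes are not ranked here. The one use across loci is to say which genes fell among the lower 40% of loci by mean signal, below 5.72. Several CESA genes are close in sequence, and whether a probe set also reads a paralog was not tested. In whole shoots, a change in the number of cells of a type cannot be told apart from a change in RNA per cell. The SHR transcript lay at 4.70 to 4.89 on the shr-5 arrays and at 6.19 to 6.81 on the others. SCR lay at 7.13 to 7.63 on the scr-3 arrays, 7.35 to 7.60 on the shr-5 arrays and 7.94 to 7.99 on the WT arrays, so it does not separate the mutants. Of the leaf markers 4 of 8 were measured, and their mean signal was 13.40 to 13.48 on all 9 arrays. Across loci, 8 arrays correlated with each other at r = 0.983 to 0.997, while shr-5 replicate 3 reached at most 0.979 with any other array. Values without that array are given beside those that it moved by over 1.5 times or whose call it changed.

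CESA3 and CESA7 rose in shr-5, and no CESA gene passed the test in scr-3. Against WT, all 8 genes had a positive difference in shr-5, from 0.15 to 0.51, and 7 of 8 did in scr-3, from -0.07 to 0.36. The median difference of the 8 was 0.34 in shr-5, where the median of all loci was -0.01. In scr-3 it was 0.17, against 0.00 for all loci. Both mutants were compared with the same 3 WT arrays, so the 2 sets of differences are not independent.

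**Figure D1:**
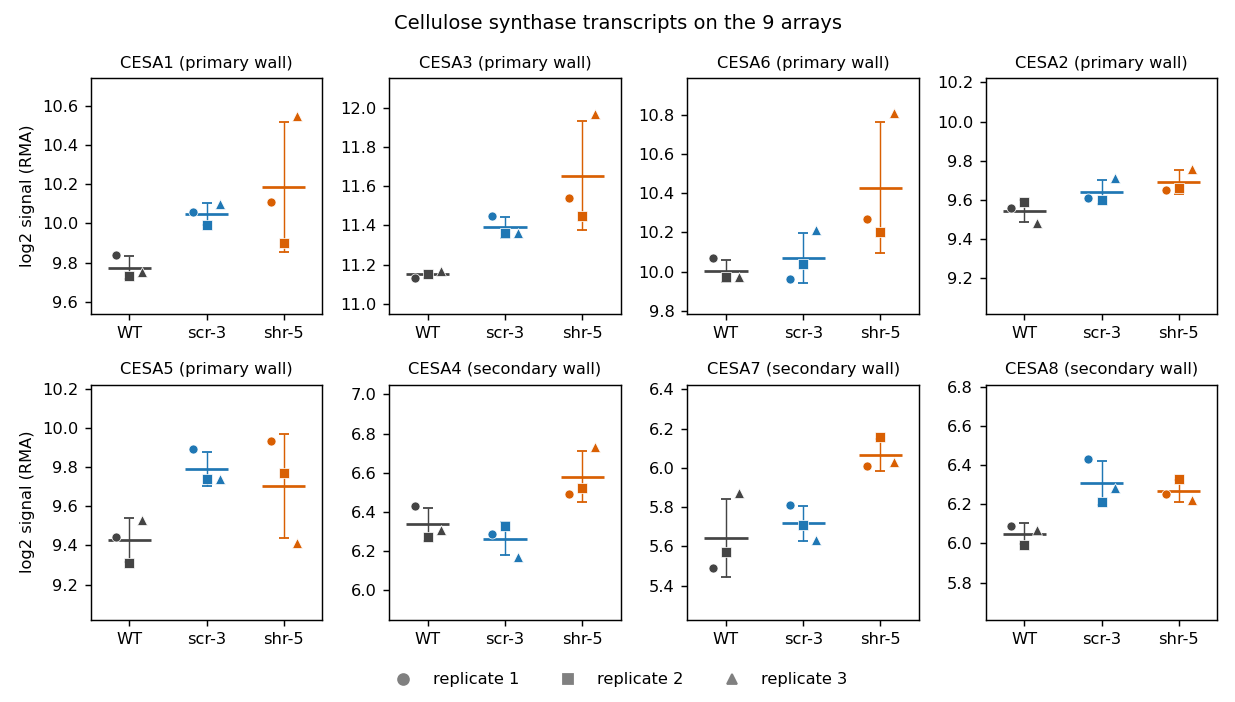
Log2 signal of each CESA gene on the 9 arrays, by genotype. Symbols are single arrays by replicate number, horizontal lines are group means and bars are the SD of 3 arrays, and every panel spans 1.2 log2 units. The shr-5 replicate 3 triangle is the highest point for CESA1, CESA3 and CESA6 and, at 9.41 for CESA5, lies among the WT arrays.

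CESA1 (AT4G32410), without whose product primary wall complexes do not form properly, had signals of 9.84, 9.73 and 9.75 on the WT arrays. It lay at 10.06, 9.99 and 10.10 in scr-3, and at 10.11, 9.90 and 10.55 in shr-5. Every mutant array was above every WT array, while the scr-3 and shr-5 arrays overlapped. The difference from WT was 0.28 in scr-3 (SE 0.14, limma adjusted p = 0.542) and 0.41 in shr-5 (SE 0.14, limma adjusted p = 0.119). Neither passed the threshold of 0.05 over all loci.

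CESA3 (AT5G05170), the other isoform common to primary wall complexes and also known as CEV1, gave the tightest WT values, 11.13, 11.15 and 11.17. Its signals were 11.45, 11.36 and 11.36 in scr-3. In shr-5 they were 11.54, 11.45 and 11.97. The WT arrays lay below all others, and the lowest shr-5 value touched the highest scr-3 value to 2 decimals without overlapping it. CESA3 rose 1.42-fold in shr-5 (log2 difference 0.51, SE 0.12, 95% interval 0.23 to 0.78, limma adjusted p = 0.0391). Its difference in scr-3 was 0.24 (95% interval -0.04 to 0.52, limma adjusted p = 0.536).

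CESA6 (AT5G64740), whose mutants have short dark-grown hypocotyls, had signals of 10.07, 9.97 and 9.97 in WT. The scr-3 arrays gave 9.96, 10.04 and 10.21, on both sides of the WT values. On the shr-5 arrays the signals were 10.27, 10.20 and 10.81, all above WT. The difference from WT was 0.42 in shr-5 (95% interval 0.08 to 0.76, limma adjusted p = 0.124) and 0.06 in scr-3 (95% interval -0.28 to 0.40, limma adjusted p = 0.937).

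CESA2 (AT4G39350) and CESA5 (AT5G09870) can take the place of CESA6 in part, and CESA5 also serves the mucilage of the seed coat. CESA2 varied least among the 8 genes between genotypes, with a WT mean of 9.54 ± 0.06, a scr-3 mean of 9.64 ± 0.06 and a shr-5 mean of 9.69 ± 0.06 (SD, n = 3 arrays each). Its mutant arrays were all above WT, yet the differences of 0.10 and 0.15 did not pass (limma adjusted p = 0.698 and 0.246). CESA5 lay at 9.44, 9.31 and 9.53 in WT and at 9.89, 9.74 and 9.74 in scr-3. In shr-5 it was 9.93 and 9.77 on replicates 1 and 2 and 9.41 on replicate 3, inside the WT range. The difference of CESA5 was 0.36 in scr-3 (95% interval 0.07 to 0.65, limma adjusted p = 0.325), the highest of the 8 there, and 0.28 in shr-5 (95% interval -0.01 to 0.57, limma adjusted p = 0.226).

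Among the secondary wall genes, CESA7 (AT5G17420), known as IRX3 for the collapsed xylem of its mutant, had signals of 5.49, 5.57 and 5.87 on the WT arrays. It lay at 5.81, 5.71 and 5.63 in scr-3, within the WT range. The shr-5 arrays gave 6.01, 6.16 and 6.03, above all others. CESA7 rose 1.34-fold in shr-5 (log2 difference 0.42, SE 0.11, 95% interval 0.18 to 0.66, limma adjusted p = 0.0465). In scr-3 its difference was 0.07 (95% interval -0.17 to 0.32, limma adjusted p = 0.884). The mean signal of CESA7 over all arrays was 5.81, just above the limit of 5.72 for the lower 40% of loci. Its WT mean of 5.64 was below that limit, while its scr-3 mean was 5.72 and its shr-5 mean 6.06. CESA7 thus rose from a dim level.

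CESA4 (AT5G44030), which works in the same complex, was 6.43, 6.27 and 6.31 in WT and 6.29, 6.33 and 6.17 in scr-3. In shr-5 it was 6.49, 6.52 and 6.73, again above both other groups. Its differences from WT were 0.25 in shr-5 (95% interval 0.05 to 0.45, limma adjusted p = 0.123) and -0.07 in scr-3 (limma adjusted p = 0.847). CESA8 (AT4G18780), or IRX1, followed another order. It lay at 6.09, 5.99 and 6.07 in WT, 6.43, 6.21 and 6.28 in scr-3, and 6.25, 6.33 and 6.22 in shr-5. Both mutants were above WT and overlapped each other, with differences of 0.26 in scr-3 (95% interval 0.08 to 0.44, limma adjusted p = 0.231) and 0.21 in shr-5 (95% interval 0.04 to 0.39, limma adjusted p = 0.129).

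**Figure D2:**
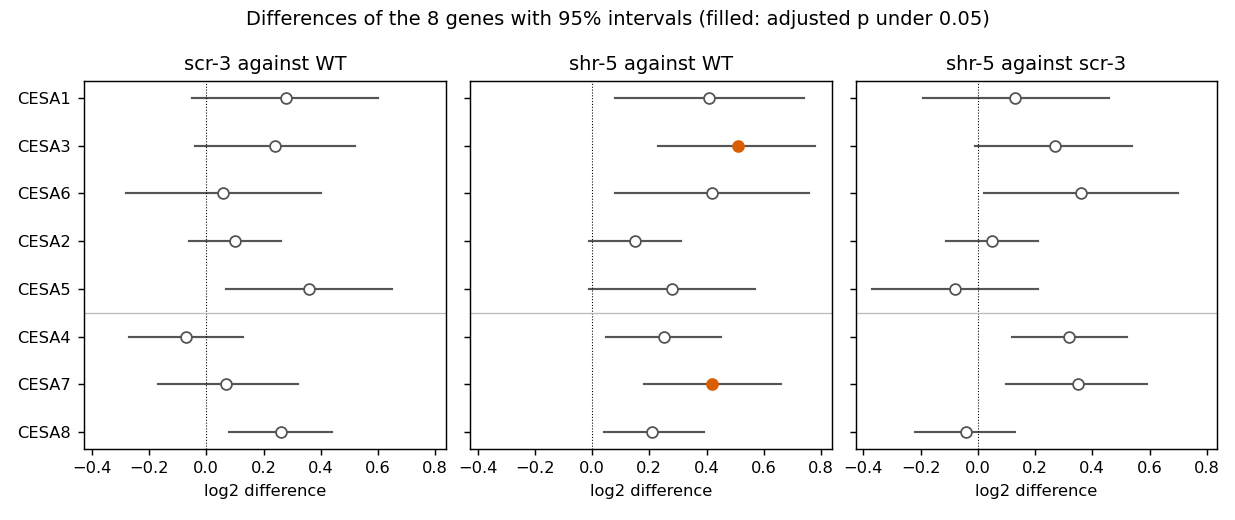
Log2 difference of each CESA gene in the 3 comparisons, with its 95% interval from the limma fit of all 9 arrays. Filled points passed an adjusted p of 0.05 over all loci. Only CESA3 (0.51) and CESA7 (0.42) in shr-5 against WT are filled.

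Read against all loci, 2 of 8 CESA genes were called in shr-5, both higher, where 8.14% of all loci were called and 4.35% of all loci were called higher. At an unadjusted p under 0.05, 6 of 8 were higher, against 12.4% of all loci, the exceptions being CESA2 and CESA5. The 3 shr-5 arrays lay wholly above the 3 WT arrays for 7 of 8 genes, all but CESA5, and for 14.3% of loci. In scr-3 0 of 8 genes were called by limma, where 0.366% of loci were. At an unadjusted p under 0.05, CESA5 and CESA8 were higher, 2 of 8 against 5.28% of loci. The scr-3 arrays lay above the WT arrays for 5 of 8 genes, CESA1, CESA2, CESA3, CESA5 and CESA8, and for 11.5% of loci. The 8 genes were chosen with earlier results of these data known, so these shares are descriptions.

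The comparison of shr-5 with scr-3 tests whether the mutants differ, and 0 of 8 CESA genes were called by limma, where 1.34% of loci were. At an unadjusted p under 0.05, CESA4, CESA7 and CESA6 were higher in shr-5, against 8.45% of loci. The differences were 0.32 for CESA4 (95% interval 0.12 to 0.52, limma adjusted p = 0.116), 0.35 for CESA7 (0.10 to 0.59, limma adjusted p = 0.154) and 0.36 for CESA6 (0.02 to 0.70, limma adjusted p = 0.276). The shr-5 arrays lay wholly above the scr-3 arrays for CESA3, CESA4 and CESA7, 3 of 8, and for 10.2% of loci. Without shr-5 replicate 3 the difference between the mutants was 0.17 for CESA6 and 0.11 for CESA3, which had 0.27 with all arrays, and 0.25 for CESA4 and 0.37 for CESA7. CESA1 had 0.13 with all arrays and -0.05 without that one. CESA8 differed by -0.04 (95% interval -0.22 to 0.13) and CESA5 by -0.08 (95% interval -0.37 to 0.21), or by -0.02 and 0.06 without that array. That CESA3 and CESA7 passed in shr-5 and not in scr-3 is thus no shown difference between the mutants.

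Expressed over the WT mean, the array of shr-5 replicate 3 gave 0.78 for CESA1, 0.82 for CESA3 and 0.80 for CESA6. On shr-5 replicates 1 and 2 the same genes gave 0.33 and 0.12, 0.39 and 0.30, and 0.27 and 0.20. CESA5 went the other way, at -0.01 on replicate 3 against 0.50 and 0.35. Among the shr-5 arrays, CESA1, CESA3 and CESA6 were thus highest and CESA5 lowest on the one that stands apart from the rest. CESA7 did not share this split, with 0.36, 0.51 and 0.38, nor did CESA8, with 0.20, 0.28 and 0.17. CESA4 was at 0.16, 0.19 and 0.39, and CESA2 at 0.11, 0.11 and 0.22, both highest on replicate 3 by less than CESA1, CESA3 and CESA6.

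**Figure D3:**
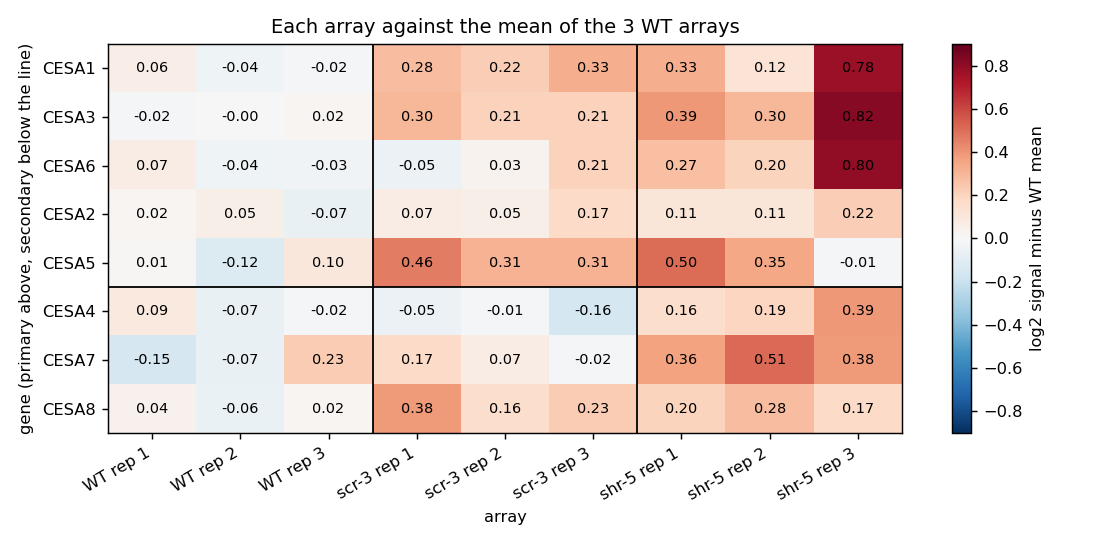
Log2 signal of each CESA gene on each array minus the mean of the 3 WT arrays, by colour and as a number. Primary wall genes are above the horizontal line and secondary wall genes below it. The values of 0.78, 0.82 and 0.80 on shr-5 replicate 3 for CESA1, CESA3 and CESA6 are the highest in the plot.

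Without shr-5 replicate 3 the difference from WT was 0.23 for CESA1 and 0.23 for CESA6, where it had been 0.41 and 0.42 with all arrays. For CESA3 it was 0.35 and the call held (limma adjusted p = 0.0172), and for CESA7 it was 0.44 (limma adjusted p = 0.0432). CESA5 then passed in shr-5 as well, with 0.42 (limma adjusted p = 0.0213), so 3 of 8 genes were called, in a fit that called 12.7% of all loci in place of 8.14%. In scr-3 against WT 0 of 8 genes were called by limma without that array, although 2.86% of all loci were, in place of 0.366%.

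Both calls in shr-5 lay close to the threshold. CESA3 did not pass when any 1 of the 3 WT arrays (adjusted p = 0.106, 0.118 and 0.107 for replicates 1, 2 and 3) or of the 3 scr-3 arrays (0.0588, 0.0663 and 0.0653) was left out. That of CESA7 held only without WT replicate 3 (0.0263) or shr-5 replicate 3 among the 9 fits that left out 1 array, with an adjusted p of up to 0.151. After the arrays were brought to equal medians, which put the median of all loci in shr-5 at -0.07, CESA3 stood at 0.44 (adjusted p = 0.0619) and CESA7 at 0.36 (adjusted p = 0.0679). The difference of each of the 8 genes in shr-5 against WT was positive under all 16 alternatives. Not all of these could change it. A filter on dim loci, limma's trend and the replicate block leave the difference as it is. So do a fit of only the WT and shr-5 arrays and fits without a scr-3 array.

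**Figure D4:**
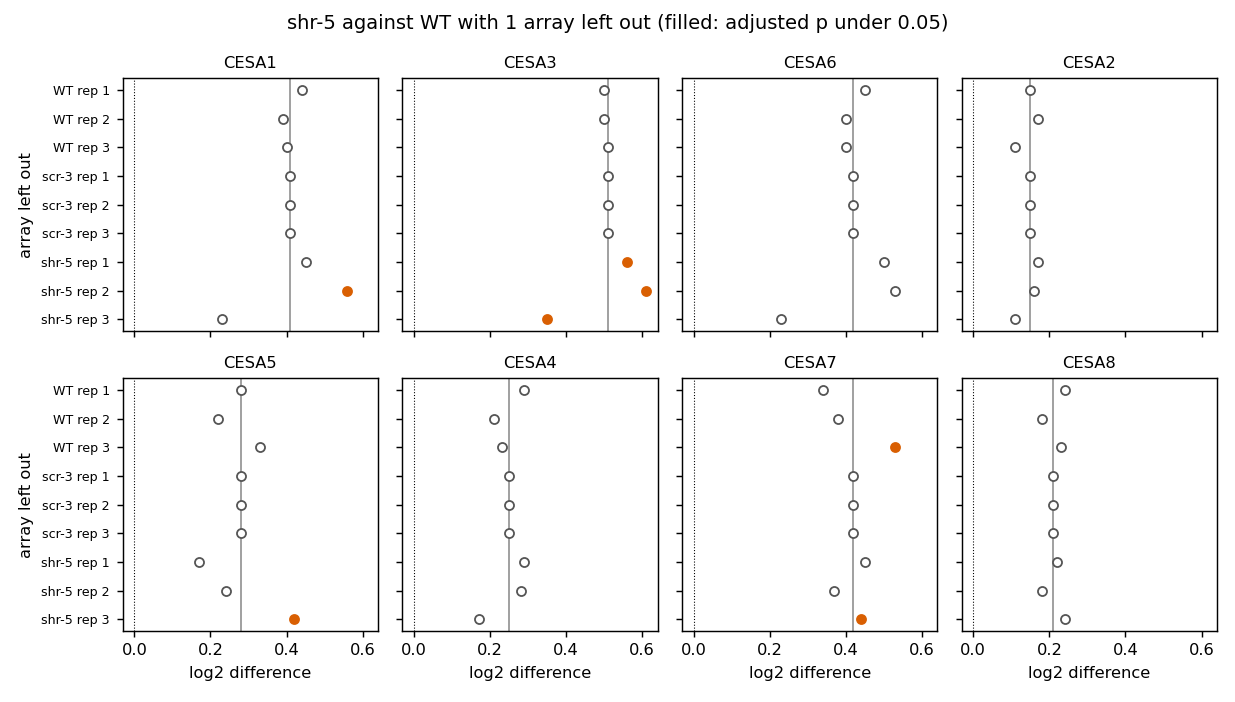
Log2 difference in shr-5 against WT for each CESA gene when 1 of the 9 arrays is left out, with the array named on the vertical axis. The gray line is the value with all 9 arrays, the dotted line is 0, and filled points passed an adjusted p of 0.05. CESA3 is filled in the 3 fits without a shr-5 array, and its value ranges from 0.35 to 0.61.

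The remaining CESA genes on the array, CESA9 and CESA10, both fell among the lower 40% of loci. CESA9, which acts in the seed coat, lay at 4.76 to 4.85 in WT, 5.01 to 5.08 in scr-3 and 4.82 to 4.92 in shr-5. CESA10 lay at 5.10 to 5.19 in WT, 5.35 to 5.45 in scr-3 and 4.98 to 5.33 in shr-5. For both the scr-3 arrays were above all others, with differences from WT of 0.23 (limma adjusted p = 0.206) and 0.24 (limma adjusted p = 0.419) that did not pass. In shr-5 they were 0.05 and -0.05, and for CESA10 the value was -0.16 without shr-5 replicate 3. CESA10 was then lower in shr-5 than in scr-3, with a difference of -0.40 (adjusted p = 0.0246), where all arrays gave -0.29 (limma adjusted p = 0.196).

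Of 15 genes listed as partners of cellulose synthesis in primary walls, the transcripts of 14 were measured. In shr-5 1 of 14 was called, near the 8.14% of all loci, and this was CSI3, a relative of the CSI1 protein that ties complexes to microtubules. CSI3 rose by 0.37 in shr-5 (SE 0.08, limma adjusted p = 0.0242), from 7.30, 7.38 and 7.41 in WT to 7.79, 7.59 and 7.81, and lay at 7.58, 7.57 and 7.54 in scr-3. KOR1, a membrane endoglucanase needed for cellulose synthesis, had a difference of 0.46 (limma adjusted p = 0.0835), with 10.67, 10.61 and 10.71 in WT and 10.98, 10.89 and 11.50 in shr-5. CSI1 itself had 0.39 (limma adjusted p = 0.134). Without shr-5 replicate 3 the values were 0.27 for KOR1 (adjusted p = 0.0516) and 0.23 for CSI1 (adjusted p = 0.21). The list's median difference was 0.19 in shr-5 and 0.09 in scr-3. In scr-3 0 of 14 were called by limma, where 0.366% of all loci were. At an unadjusted p under 0.05, 2 of 14 were higher there, against 5.28% of all loci. As for CESA1, CESA3 and CESA6, shr-5 replicate 3 stood highest, with a list mean over WT of 0.37 against 0.16 and 0.06. Without that array the median in shr-5 was 0.11, with 2 of 14 called, near the 12.7% of all loci called in that fit. CSI3 did not pass without any 1 of the WT arrays or shr-5 replicate 1 (adjusted p up to 0.0806), nor at equal medians or with only the WT and shr-5 arrays.

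Of 13 cellulose synthase-like genes, CSLD5 alone was called in shr-5, 1 of 13 against 8.14% of all loci, and it fell. CSLD5, which acts in cell plate formation, had signals of 8.62, 8.65 and 8.58 in WT, 8.17, 8.33 and 8.33 in scr-3, and 8.04, 8.17 and 8.02 in shr-5. It fell by 0.54 in shr-5 (SE 0.08, limma adjusted p = 0.00477) and had -0.34 in scr-3 (limma adjusted p = 0.114), opposite in sign to CESA1 and CESA3. The fall in shr-5 kept its call in all 9 fits that left out 1 array. CSLD2, a gene of root hair growth, had 0.50 (limma adjusted p = 0.308), with 8.41 on shr-5 replicate 3 and 6.97 to 7.34 on the other 8 arrays. Without shr-5 replicate 3 its difference was 0.11.

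Genes that work beside CESA4, CESA7 and CESA8 in secondary walls did not share 1 direction. Of 19 measured genes of secondary wall synthesis, 1 rose and 1 fell in shr-5, where 8.14% of all loci were called, and the median was 0.04. PARVUS, a glycosyltransferase gene of xylan synthesis, rose by 0.47 in shr-5 (SE 0.09, limma adjusted p = 0.0179), from 5.95, 5.83 and 5.93 in WT to 6.22, 6.47 and 6.42. It also was higher in shr-5 than in scr-3, by 0.55 (limma adjusted p = 0.0274). Its rise over WT did not pass without WT replicate 2 or 3 or shr-5 replicate 2 (adjusted p up to 0.0757). XCP1, a protease gene of xylem vessels, fell by 0.34 in shr-5 (limma adjusted p = 0.0415), with signals of 7.88, 7.70 and 7.72 in WT, 7.31, 7.24 and 7.31 in scr-3, and 7.51, 7.47 and 7.29 in shr-5. In scr-3 XCP1 had -0.48 (limma adjusted p = 0.0597), and without shr-5 replicate 3 it passed there (adjusted p = 0.0123) but no longer in shr-5 (-0.27, adjusted p = 0.0624). The fall of XCP1 in shr-5 held its call in 1 of 9 fits without 1 array, that without shr-5 replicate 1 (adjusted p up to 0.124 in the others), and ended with limma's trend or with only the WT and shr-5 arrays.

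The transcription factors listed as regulators of secondary walls were mostly, in 21 of 23 cases, among the lower 40% of loci. By limma 0 of 23 were called in any of the 3 comparisons. Of all loci, 8.14% were called in shr-5, 0.366% in scr-3 and 1.34% between the mutants. At an unadjusted p under 0.05, 1 was higher in shr-5, against 12.4% of all loci, and 1 in scr-3, against 5.28%. At the same limit 2 were lower in shr-5 than in WT and 3 were lower in shr-5 than in scr-3. No share of all loci is given for lower values at this limit, so these counts are not read further. VND3 had 0.35 (limma adjusted p = 0.0528) and VND7, a master regulator of vessel formation, had -0.32 (limma adjusted p = 0.0912). Without shr-5 replicate 3 VND3 passed, with 0.39 (adjusted p = 0.0401), and VND7 had -0.21. Their signals were at 3.97 to 4.49 and 3.96 to 4.54 on all 9 arrays. In lignin monomer synthesis 1 of 14 genes was called in shr-5, again near the 8.14% of all loci, where the list's median was -0.12. CAD5, a cinnamyl alcohol dehydrogenase gene, rose by 0.81 (limma adjusted p = 0.0202), while its relative CAD4 had -0.74 (limma adjusted p = 0.187). CAD4 had -0.34 without shr-5 replicate 3, and without shr-5 replicate 1 it passed, with -1.10 (adjusted p = 0.0255). CAD5 did not pass without WT replicate 2 or 3 or shr-5 replicate 2 (adjusted p up to 0.0837), or with only the WT and shr-5 arrays. Averaged over the 14 genes, the signal minus the WT mean was 0.44 and 0.16 on shr-5 replicates 1 and 2 and -0.66 on replicate 3. Without replicate 3 the list's median was 0.24 and 3 of 14 genes were called, against 12.7% of all loci.

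Cellulose synthases use UDP-glucose, which plants make from sucrose by sucrose synthase or from glucose 1-phosphate by UDP-glucose pyrophosphorylase. Of 10 genes of this supply, 2 rose and 1 fell in shr-5, against 8.14% of all loci called. The sucrose synthase gene SUS3 rose 2.49-fold (log2 difference 1.32, SE 0.20, limma adjusted p = 0.00652), from 4.54, 4.36 and 4.76 in WT to 6.11, 6.10 and 5.41. SUS1 rose by 0.50 (limma adjusted p = 0.0281), and UGP2, a pyrophosphorylase gene, fell by 0.73 (limma adjusted p = 0.014). UGP1, the other pyrophosphorylase gene listed, was not called. It lay at 10.76, 10.67 and 10.70 in WT and at 11.28, 11.30 and 10.76 in shr-5. Fits with 1 array left out are not given for UGP1. In scr-3 SUS3 had 0.77 (limma adjusted p = 0.176), and it passed without shr-5 replicate 3 (adjusted p = 0.0173). Between the mutants SUS3 had 0.55 with all arrays and was not called. Without shr-5 replicate 3 that difference was 0.78 and passed (adjusted p = 0.0236). SUS1 did not pass without WT replicate 1 or 3 or shr-5 replicate 1 (adjusted p up to 0.0715) or with only the WT and shr-5 arrays, nor UGP2 without WT replicate 1 or 3 (up to 0.0573). SUS3 passed in all 9 fits without 1 array. The supply genes thus moved in both directions while CESA3 and CESA7 rose.

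**Figure D5:**
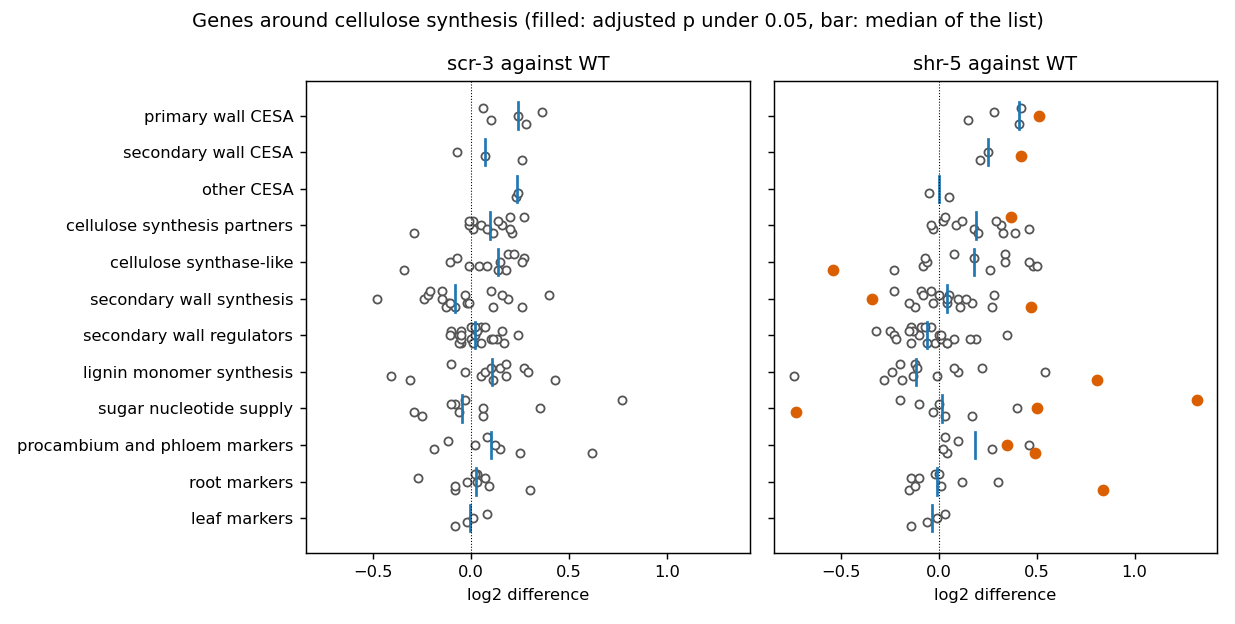
Log2 difference of every measured gene of 12 lists in scr-3 (left) and shr-5 (right) against WT. Each point is a gene, filled where the adjusted p was under 0.05, and bars are list medians. In shr-5 the medians of primary wall CESA (0.41) and secondary wall CESA (0.25) lie to the right of those of secondary wall synthesis (0.04) and of the regulators (-0.06).

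In scr-3 0 of the 125 measured genes of all these lists and of the marker lists, the CESA genes included, were called by limma. Of all loci 0.366% were called there. At an unadjusted p under 0.05, 13 of the 125 were higher in scr-3, against 5.28% of all loci. At that limit 5 were lower, a count for which no share of all loci is given. Markers of other tissues were read beside these values. Of 8 measured procambium and phloem markers, all 8 had a positive difference in shr-5, of 0.02 to 0.49, where the median of all loci was -0.01. Of the 8, 2 rose, where 4.35% of all loci did. These were the procambial receptor gene PXY by 0.35 (limma adjusted p = 0.0415) and the phloem sucrose transporter gene SUC2 by 0.49 (limma adjusted p = 0.0349). The phloem regulator APL had 0.46 (limma adjusted p = 0.0878). The mean signal of this list was 7.91 to 7.99 in WT, 7.98 to 8.18 in scr-3 and 8.03 to 8.26 in shr-5. None of these 8 lay among the lower 40% of loci. Over the WT mean, the list gave 0.25 and 0.32 on shr-5 replicates 1 and 2 and 0.09 on replicate 3. CLE41 (8.22) and CLE44 (6.02) of this list lay below all WT arrays on replicate 3. On the other shr-5 arrays both lay above all WT arrays. PXY passed in 2 of 9 fits without 1 array, those without WT replicate 3 or shr-5 replicate 3 (adjusted p up to 0.142 in the others). SUC2 did not pass without WT replicate 1 or 3 or any 1 of the scr-3 arrays (up to 0.121). Equal medians, the replicate block and a fit of only the WT and shr-5 arrays ended both calls, and quantile normalization and limma's trend ended that of PXY, in all 12 of 16 alternatives for PXY and 8 of 16 for SUC2. The other 6 measured genes of this list were not called in shr-5. PXY, SUC2 and CESA7 were thus called higher in shr-5 with all 9 arrays. Each call ended under some alternatives, that of CESA7 in 12 of 16. The part of these markers in the CESA differences was not tested.

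Of 10 root markers, 7 were below 5.72, and the list's mean was 5.45 to 5.48 in WT, 5.43 to 5.53 in scr-3 and 5.47 to 5.61 in shr-5. The Casparian strip genes CASP1 and CASP2 lay at 5.14 to 5.39 and 4.21 to 4.57 on the 9 arrays. In shr-5 1 of 10 root markers was called, where 8.14% of all loci were. This was PYK10, a beta-glucosidase gene of ER bodies that is strong in roots and hypocotyls. It rose by 0.84 in shr-5 (limma adjusted p = 0.000764), from 10.70 to 10.86 in WT to 11.59 to 11.68, and its part in the CESA differences was not tested. WER, a root epidermis gene, had 0.30 (limma adjusted p = 0.0565), and passed without shr-5 replicate 3 with 0.34 (adjusted p = 0.0347). Of the leaf markers, RCA had -0.14 and LHCA1 -0.06, and 0 of 4 were called in shr-5 by limma or at an unadjusted p under 0.05.

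The loci whose course over the 9 arrays was most like the mean of each CESA set were taken by Pearson's r, as a description over arrays that share 3 genotypes. A set mean does not follow each member. CESA5 had r = 0.14, 0.16, 0.18 and -0.14 with CESA1, CESA2, CESA3 and CESA6, which had 0.79 to 0.94 among themselves. In the secondary wall set r was 0.65 for CESA4 and CESA7, 0.48 for CESA7 and CESA8, and 0.10 for CESA4 and CESA8. For the primary wall set the nearest were KCS6 (r = 0.988, Spearman's rho = 0.95), an enzyme gene of cuticular wax synthesis, OCT4 (r = 0.981, rho = 0.93), UGT74F2 (r = 0.980, rho = 0.98), AT2G35920 (r = 0.971, rho = 0.87) and ARI5 (r = 0.970, rho = 0.92). Without shr-5 replicate 3 their r was 0.94 to 0.98. KCS6 rose by 0.65 in shr-5 (limma adjusted p = 0.0084) and had 0.40 in scr-3 (limma adjusted p = 0.181). For the secondary wall set the nearest were COPT5 (r = 0.979, rho = 0.98), a copper transporter gene, AT5G10740 (r = 0.972, rho = 0.97), CID6 (r = 0.970, rho = 0.98), AT4G34180 (r = 0.968, rho = 0.97) and AT4G33940 (r = 0.967, rho = 0.92). COPT5 ranged over 0.25 log2 units on the 9 arrays and did not pass in shr-5 (0.17, limma adjusted p = 0.147). Neither set of 5 held a gene of the lists above.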

How the data were processed

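Per the submitters' processing notes, the authors made the deposited log2 values with RMA, which corrects background, normalises quantiles between arrays and summarises probes. Their range, 2.90 to 14.03, fits a log2 scale. Neither the RMA version nor the mapping of probes to loci nor a genome build was stated in the sources. The table holds 1 value per locus for 20777 loci, and no 2 arrays were identical. With arrays there is no read depth, and precision rests on their number, 3 a group.

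All 9 arrays entered 1 linear model with a mean per genotype (R 4.3.3, limma 3.58.1, lmFit and eBayes, 6 residual and 2.99 prior degrees of freedom). P-values are two-sided and Benjamini-Hochberg adjusted within each comparison over every locus. The threshold was 0.05, with no filter on dim loci. Errors are moderated standard errors, and intervals cover 95%. The procedure was tested on simulated data.

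The CESA genes, the 10 other gene lists (125 of 133 distinct loci measured, CESA genes included) and the tests were chosen with earlier results of these data known, and a rise of CESA7 was among those results. The text names all CESA genes, each listed locus called in any comparison, the 2 per list with the largest change in shr-5 against WT, and the 5 loci most like each set. CASP1, CASP2, CLE41, CLE44 and UGP1 were added after their values were seen. Names of the 5 came from a RefSeq gene table of the assembly TAIR10.1, which holds 20508 of the loci.

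The deviations of same-numbered scr-3 and WT arrays from their group means correlated at r = 0.277, 0.138 and 0.107. Arrays of unlike number were not compared, so neither these values nor the labels tell whether the numbers mark pairs. In the other comparisons not every r was positive. Every value printed as main is from the fit without a block. Alternatives were another centring, quantile normalization, a dim filter, limma's trend, array weights, fits of the compared groups only, a replicate block, and each array left out.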

Additional observations from a re-analysis of the deposited data

Results flagged for a closer look

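With all 9 arrays, PARVUS and PYK10 were the listed genes whose level differed between the mutants by a test of the difference itself. They were 2 of 125 measured genes, near the 1.34% of all loci called in that comparison. PARVUS was higher in shr-5 than in scr-3 by 0.55 on the log2 scale (limma adjusted p = 0.0274), higher in 3 of 3 arrays. PYK10 was higher by 0.54 (limma adjusted p = 0.0195), also in 3 of 3 arrays. The call of PARVUS was lost in 6 of 9 fits without 1 array (adjusted p up to 0.105) and that of PYK10 in 4 of 9 (up to 0.0853). Without shr-5 replicate 3, SUS3 (0.78, adjusted p = 0.0236) and CESA10 (-0.40, adjusted p = 0.0246) passed as well. None of the 8 CESA genes met this criterion.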

How the results depend on the processing

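The count of CESA genes called in shr-5 against WT was 2 of 8 with all arrays, where 8.14% of all loci were called. It was 0 with the arrays at a common median (9.46% of all loci) or with only the WT and shr-5 arrays (3.88%). It was 1, CESA3 each time, with quantile normalization (8.17%), limma's trend (8.01%) or the replicate block (8.28%). With array weights it was 3 (12.8%). Without 1 array it ranged from 0 to 3, where 3.15% to 12.7% of all loci were called. Under these alternatives 0 of 8 were called by limma in scr-3 against WT and in shr-5 against scr-3. Of all loci 0.0818% to 2.86% and 0.116% to 2.94% were called there. The cause of these shifts was not tested.

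Over all loci, 76 were called in scr-3 against WT, 1691 in shr-5 against WT and 279 in shr-5 against scr-3. With array weights the counts were 491, 2657 and 594, and with only the groups compared 577, 807 and 24. Without 1 array they ranged from 17 to 595, 654 to 2643 and 33 to 610, in each case highest without shr-5 replicate 3. With equal medians the share of higher calls in shr-5 against WT was 34.9%, in place of 53.5%, and in shr-5 against scr-3 37.2%, in place of 57.0%. In scr-3 against WT the share without dim loci was 80.0%, in place of 64.5%. With the replicate block the counts were 52, 1720 and 236, and the block ended the call of CESA7 (adjusted p = 0.073), PXY and SUC2 in shr-5 against WT and of PARVUS between the mutants, and added that of WER in shr-5 against WT (adjusted p = 0.0499). It changed no other call of a gene named by the stated rule. Deviations of equal replicate numbers correlated at 0.204, -0.106 and 0.099 in shr-5 against WT and at 0.444, -0.045 and 0.335 between the mutants.

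A change of sign occurred only for differences that did not pass the threshold. Between the mutants, array weights gave -0.02 for CESA1 and 0.02 for CESA5. In scr-3 against WT they gave -0.01 for PXY, and quantile normalization gave 0.01 for LHCA1. The common median gave -0.01 for CESA9 in shr-5 against WT. When 1 array was left out, values in scr-3 against WT ranged from -0.01 to 0.12 for CESA6, -0.0044 to 0.19 for CESA7, -0.06 to 0.14 for SUS1, -0.04 to 0.11 for PXY, -0.09 to 0.00077 for VND7, -0.06 to 0.22 for APL, -0.02 to 0.07 for WER and -0.06 to 0.01 for LHCA1. CESA10 in shr-5 against WT ranged from -0.16 to 0.02. Between the mutants CESA1 ranged from -0.05 to 0.28, CESA5 from -0.19 to 0.06, CESA8 from -0.09 to 0.02 and CAD4 from -0.70 to 0.06.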
